A study of Mus musculus with 8 samples.

Results

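The genes described here encode the 10 subunits of the mouse CCR4-NOT deadenylase, Cnot1, Cnot2, Cnot3, Cnot6, Cnot6l, Cnot7, Cnot8, Cnot9, Cnot10 and Cnot11. The question was where N6-methyladenosine (m6A) peaks lay on their mRNAs in mouse embryonic stem cells (ESCs), and how the peaks of control cells differed from those of cells in which Dux had been switched on. A peak belonged to a subunit when 1 or more of its exon-block bases fell in an annotated exon of that gene on the same strand. By this rule, 29 of the 18895 peaks of control cells and 22 of the 13001 peaks of induced cells lay on the subunits, in 9 and 8 of the 10 genes.

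The cells were ESCs of the E14 line, cultured on gelatin with leukemia inhibitory factor. All of them carried a Dux transgene that doxycycline (Dox) switches on, and a tdTomato reporter driven by the promoter of the MERVL retrotransposon. DUX is the transcription factor that drives ESCs into the 2C-like state, named after the embryo of 2 cells. Cells received Dox for 24 h or the solvent DMSO for 24 h. Poly(A) RNA was fragmented to about 150 nt, m6A fragments were immunoprecipitated (IP), and IP and input RNA were sequenced in 8 libraries, 2 replicates in each of 4 groups. Whether the line was 1 clone is not given in the sources used here. Each treatment came with 1 peak list made from its libraries, so no value below has a replicate error and no test between treatments could be made. Intervals are Wilson 95% intervals and cover counting error only.

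The labelled cell type was checked against marker genes. All 6 ESC markers carried peaks in both lists, and 0 of 4 fibroblast feeder markers did in either. Of 7 genes of the 2C-like state, only Zscan4c and Zscan4d, near-identical genes of a single family, carried peaks in the DMSO list, and all 7 did in the Dox list. A peak is not a level of RNA, and the levels of these transcripts and the depth of the libraries were not analysed here. A deeper library or a more abundant transcript gives more and longer peaks, and in bulk RNA fewer cells of a kind and less RNA per cell cannot be told apart.

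CCR4-NOT shortens the poly(A) tail of mRNAs, the usual first step of their decay. CNOT1 is the scaffold on which the other subunits assemble. CNOT2 and CNOT3 form the NOT module at its C-terminal end, CNOT9 binds its centre and serves as a docking site for RNA-binding proteins, and CNOT10 and CNOT11 bind its N-terminal end. The tail itself is removed by a pair of nucleases, of the CCR4 type (CNOT6 or its paralogue CNOT6L) and of the CAF1 type (CNOT7 or its paralogue CNOT8). The m6A reader YTHDF2 binds CNOT1 and so brings the complex to methylated mRNAs. The peaks described here lie on the mRNAs that encode the complex, not on its targets.

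The sites that the results turn on are printed first, from the GRCm38 (mm10) reference genome, in mRNA sense from 5′ to 3′. In the first set the capitals mark GGAC, the core of the m6A consensus, at sites that lay in peaks of both lists, with the flanking bases of the same exon.
Cnot1, exon 2, chr8:95788666-95788693, minus strand: cagctacctggtGGACaatttaaccaag
Cnot1, exon 31, chr8:95741922-95741949, minus strand: gatagtcagaaaGGACtttgccctggat
Cnot2, 3′UTR, chr10:116485319-116485346, minus strand: ttcagcagccaaGGACatccatacccaa
Cnot3, CDS, chr7:3653545-3653572, plus strand: cagccacatggaGGACgagatcttcaac
Cnot3, CDS, chr7:3658663-3658690, plus strand: acccccacactcGGACactgtggagttc
Cnot7, CDS, chr8:40507519-40507546, minus strand: ataatccagctcGGACtgacctttatga
Cnot10, CDS, chr9:114632707-114632734, minus strand: atctggggtcacGGACcaggagaaggag
Cnot11, 3′UTR, chr1:39546591-39546618, plus strand: agctgaaggggaGGACcaacccatagga

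The second set shows sites in peaks of a single list. Capitals mark GGAC where the peak holds it, and otherwise a match to DRACH, the wider m6A consensus.
Cnot1, DMSO peak, CDS, chr8:95740786-95740813, minus strand: gcccggcaagaaGGACgtaggtactgtg
Cnot1, DMSO peak, exon 34, chr8:95739901-95739928, minus strand: ggttggtggtgtGGACccaaagcagcta
Cnot1, DMSO peak, CDS, chr8:95723286-95723313, minus strand: gaacctggctgtGGACctagacactgag
Cnot3, DMSO peak, exon 8, chr7:3653274-3653301, plus strand: cctgcgaatgctGGACaatgactccatc
Cnot8, DMSO peak, 3′UTR, chr11:58117705-58117733, plus strand: ctctgaatttgtAAACAagtcttcctcgt
Cnot10, DMSO peak, CDS, chr9:114626459-114626483, minus strand: actggcaaTAACAgcagcaaagatg
Cnot10, Dox peak, 5′UTR, chr9:114640000-114640027, minus strand: cccccgccggtaGGACtcaccaccagcc

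The mRNAs of CCR4-NOT subunits carried m6A peaks in both treatments, and the peaks of the DMSO list covered more of them. A DMSO peak lay on 9 of the 10 genes (interval 59.6% to 98.2%), beside 27.5% of all 22028 annotated protein-coding genes. A Dox peak lay on 8 of them (49.0% to 94.3%), beside 22.1%. These backgrounds include genes that ESCs do not transcribe. For the genes with a peak, the median number of exon bases in peaks was 275 over subunits and 350 over all protein-coding genes in the DMSO list, and 175 and 300 in the Dox list. Cnot6l was the subunit with 0 peaks in both lists, and Cnot8 had a peak in the DMSO list only.

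Exon bases inside peaks numbered 4425 under DMSO and 2151 under Dox, out of 67708 exonic bases of the 10 genes. The ratio of DMSO to Dox was therefore 2.06 over the subunits, beside 1.47 for the bases of all peaks of both lists. It was 1.97 without Cnot1 and Cnot3, which together held 63.3% of the subunits' DMSO bases and 61.6% of their Dox bases. The number of peaks differed less, with a ratio of 1.32 over the subunits and 1.45 over both whole lists. Of the Dox bases, 1925 (89.5%) also lay in DMSO peaks, whereas these made up 43.5% of the DMSO bases.

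All 9 subunits with a peak had more exon bases in DMSO peaks than in Dox peaks. The same held for 86.7% of the 6213 protein-coding genes with a peak in either list, so the direction was that of most genes. Among the 8 subunits with peaks in both lists, 6 (interval 40.9% to 92.9%) had at least 2 times as many DMSO as Dox bases, namely Cnot1, Cnot2, Cnot3, Cnot6, Cnot7 and Cnot11. This was so for 27.9% of 4730 genes with peaks in both lists, a limit chosen after the subunits' values were seen. By number of peaks the picture was mixed. DMSO peaks outnumbered Dox peaks on 5 of 9 subunits (55.6%, 26.7 to 81.1), beside 59.1% of genes, Cnot6, Cnot7 and Cnot11 had more Dox peaks, and Cnot2 had 2 of each.

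The lengths of the lists bear on these values. When both were held to their 13001 top-scoring peaks, the subunits kept 23 DMSO and 22 Dox peaks. The base ratio was 1.79, and 6 subunits had more DMSO bases. The ratio over all peaks and the share of all genes in that setting are not given here, so these values have no background. In that setting Cnot2 had 150 bases in each list, Cnot10 had 275 DMSO and 276 Dox bases, and Cnot6 had 0 DMSO and 50 Dox bases.

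**Figure D1:**
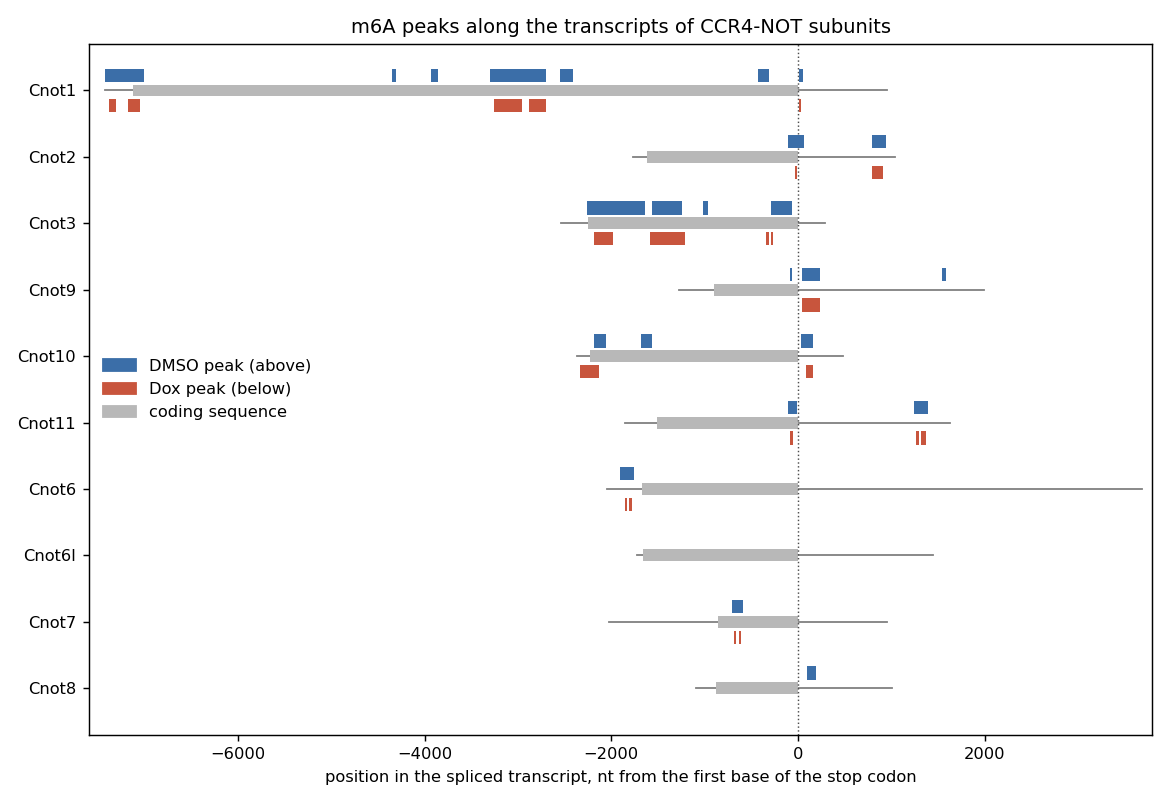
Map of the peaks along 1 spliced transcript per subunit, with position in nt from the first base of the stop codon on the horizontal axis, DMSO peaks in blue above each transcript and Dox peaks in red below, and the coding sequence as a grey bar. Most Dox peaks sit under a longer DMSO peak, Cnot6l has none, and 2 of the 29 DMSO peaks (on Cnot3 and Cnot10) are placed outside these transcripts by their middle base.

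Cnot1, the scaffold, had 8 DMSO peaks, which covered 1500 bases, and 5 Dox peaks, which covered 700. All 700 Dox bases lay inside DMSO peaks. The peaks formed groups at the start codon, in the middle of the coding sequence and around the stop codon. At the 5′ end, a DMSO peak of 425 nt in 3 exon blocks ran from the 5′UTR over the start codon to codon 41. It held a Dox peak of 75 nt in exon 1 and a Dox peak of 125 nt in exon 2, chr8:95788660-95788784, which covered the start codon and codons 1 to 24. The latter had the highest percentile of any subunit peak within its list by score, the score being the −log10 p-value deposited with each peak. Its score of 21.0 lay above 97.7% of the scores of the Dox list. The DMSO peak over the same bases lay at the 50.7th percentile of its own list. The annotated gene 4930513N10Rik overlaps the 5′ end of this region on the opposite strand.

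In the middle of Cnot1, the longest peak of all subunits spanned 600 nt of 4 exons (codons 1275 to 1475) in the DMSO list, at the 86.1st percentile. Over it lay Dox peaks of 300 nt (codons 1292 to 1392) and 175 nt (codons 1417 to 1475), at percentiles 82.3 and 32.6. The GGAC of exon 31 printed above lay in the DMSO peak and in the Dox peak of 175 nt. Another 5 DMSO peaks, of 50 to 125 nt and between percentiles 21.1 and 74.4, had no Dox peak over them. They lay in the coding sequence at codons 925 to 942, 1067 to 1092, 1525 to 1560, 1561 to 1573 and 2233 to 2274. Near the stop codon, peaks of 50 nt (DMSO) and 25 nt (Dox) lay in the 3′UTR 33 and 21 nt past its first base. The Dox peak there had the lowest score percentile of any subunit peak, 3.65.

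Cnot3, of the NOT module, had the densest coverage, with 1300 bases in 7 DMSO peaks and 625 in 4 Dox peaks. The transcript with the longest coding sequence had 43.0% of its bases in DMSO peaks and 22.1% in Dox peaks, more than any other subunit in either list. A DMSO peak of 500 nt in 7 exon blocks covered codons 1 to 161, and a Dox peak of 200 nt inside it covered codons 24 to 90. The best-scoring Cnot3 peak of the DMSO list, 325 nt over codons 230 to 338 at the 90.8th percentile, lay wholly inside a Dox peak of 375 nt over codons 222 to 347. It was the single place among the subunits where the Dox peak was the longer of the pair. Toward the 3′ end, a DMSO peak of 200 nt over codons 655 to 719 was met by a Dox peak of 25 nt over codons 655 to 663.

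A Dox peak of 25 nt at codons 638 to 646 of Cnot3 had no DMSO peak over it and ended 25 nt before the nearest. The DMSO list alone held Cnot3 peaks of 150, 50, 25 and 50 nt. Those of 50 nt and 25 nt at codons 414 to 428 had only 37 and 8 bases on the transcript with the longest coding sequence. They also lay on the annotated microRNA gene Mir3572 on the same strand, so the gene they came from cannot be told. The last 2 DMSO peaks of Cnot3 overlapped Leng1 on the opposite strand.

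Cnot2, the partner of CNOT3, had 2 peaks in each list, all with the middle base in its last exon (exon 16). Its DMSO peaks covered 325 bases and its Dox peaks 150. A DMSO peak of 175 nt covered the stop codon, the single subunit peak in either list to do so, and held a Dox peak of 25 nt over codons 530 to 538. The second pair lay deep in the 3′UTR, 866 and 854 nt past the stop codon, with lengths of 150 nt (DMSO, 86.7th percentile) and 125 nt (Dox, 40.3rd percentile). Both held the same 3 GGAC sites, 1 of which is printed above.

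Cnot9 had 275 bases in 3 DMSO peaks and 200 in 1 Dox peak, again all in the last exon (exon 8). The Dox peak, chr1:74528892-74529091 in the 3′UTR, was identical to a DMSO peak base for base, the only such pair on the subunits. It lay at the 89.6th percentile of the Dox list and at the 60.2nd of the DMSO list. The other DMSO peaks were 25 nt at codons 271 to 279 and 50 nt far into the 3′UTR, 1565 nt past the stop codon. None of the 12 GGAC sites of the Cnot9 transcript lay in a peak of either list.

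Cnot10 and Cnot11, whose proteins sit together on the N-terminal end of CNOT1, differed in where their peaks lay. Cnot10 had 400 bases in 4 DMSO peaks and 276 in 3 Dox peaks, with 125 bases in common, which was 31.2% of the DMSO bases and 45.3% of the Dox bases. That was the smallest common share of Dox bases of any subunit with Dox peaks. Its best DMSO peak (score 15.6, 90.9th percentile), at codons 184 to 220, had its nearest Dox peak 5278 genomic bases away. Beside it lay a DMSO peak of 25 nt in 2 exon blocks (79.3rd percentile), also without a Dox peak over it. Only 4 of its bases, at codons 221 to 222, were on the transcript with the longest coding sequence. A Dox peak of 125 nt without a DMSO partner ran from the 5′UTR over the start codon to codon 8, and holds the 5′UTR site printed above. Next to it, a DMSO peak at codons 18 to 59 and a Dox peak at codons 8 to 34 shared 50 nt. In the 3′UTR, 75 nt of a DMSO peak of 125 nt (21.3rd percentile) formed a Dox peak (88.7th percentile).

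All 5 Cnot11 peaks lay in the last exon (exon 8), with 250 DMSO and 100 Dox bases. A DMSO peak of 100 nt just before the stop codon held a Dox peak of 25 nt. Another of 150 nt, 1318 nt past the stop codon, held Dox peaks of 25 and 50 nt that lay 25 nt apart. The 25 nt Dox peak in the 3′UTR matched 95 other genomic places at 98% identity or more over no less than 90% of its length, so its reads may come from elsewhere.

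As a group, the deadenylase genes carried fewer peaks than the other subunits. Over all protein-coding genes with a peak, the median was 2 peaks per gene in each list. The 4 nuclease genes had 3 DMSO and 4 Dox peaks over 375 and 100 bases, out of 25380 exonic bases. The other 6 genes had 26 and 18 peaks over 4050 and 2051 bases, out of 42328. The nuclease transcripts held 46 GGAC sites, or 3.29 per kb, of which 2 lay in DMSO peaks and 1 in a Dox peak. The other transcripts held 102, or 4.32 per kb, of which 23 lay in DMSO and 16 in Dox peaks. Cnot6l, without a peak, had the lowest density of all subunits on the 1 transcript used per gene, 1.89 per kb.

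Cnot6, a CCR4-type nuclease, had a DMSO peak of 150 nt in the 5′UTR, in exon 1, with 2 Dox peaks of 25 nt inside it. Its 3′UTR of 3690 nt held 15 GGAC sites and no peak. It was the longest of the subunits on the transcripts with the longest coding sequence. The paralogue Cnot6l had no peak, and its transcript held 6 GGAC sites beside 22 on that of Cnot6. These transcripts had 3170 of the 10313 exonic bases of Cnot6l and 5736 of the 6610 of Cnot6. The coding sequences of the pair were 73.6% identical. Cnot7, a CAF1-type nuclease, had a DMSO peak of 125 nt at codons 49 to 91 (70.7th percentile) with 2 Dox peaks of 25 nt inside it, at codons 58 to 66 and 74 to 82 (14.2nd and 20.6th percentiles). Its paralogue Cnot8, 72.3% identical in coding sequence, had a DMSO peak of 100 nt in the 3′UTR, 148 nt past the stop codon (31.3rd percentile), and no Dox peak. The 2 short Dox peaks of each of Cnot6 and Cnot7 are printed whole, since each pair lay 25 nt apart inside a single DMSO peak.
Cnot6, first, chr11:49712514-49712538, minus strand: gtggggtccggggcggccgaggcgg
Cnot6, second, chr11:49712464-49712488, minus strand: gggggaacaaagagcggcggcggag
Cnot7, first, chr8:40507570-40507594, minus strand: gctgactatcagtaccaactgttgc
Cnot7, second, chr8:40507520-40507544, minus strand: aatccagctcggactgacctttatg

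**Figure D2:**
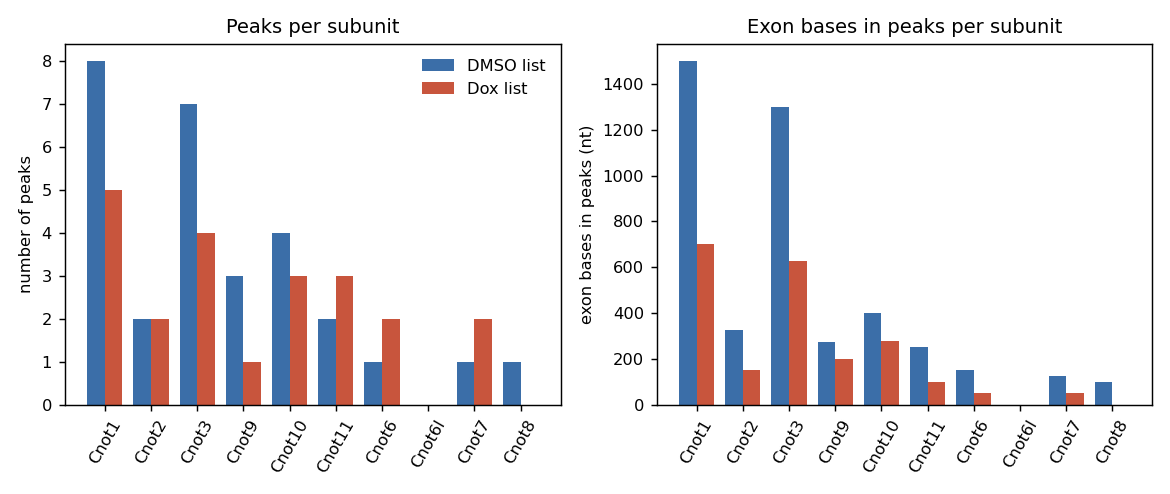
Number of peaks (left) and exon bases in peaks in nt (right) for each subunit, with DMSO in blue and Dox in red. DMSO bars are higher in the right panel for all 9 subunits with peaks, from 1500 against 700 bases on Cnot1 to 100 against 0 on Cnot8, while in the left panel Cnot6, Cnot7 and Cnot11 have more Dox peaks.

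Dox peaks on the subunits lay where DMSO peaks lay, but were shorter. A Dox peak overlapped 15 of the 29 DMSO peaks (51.7%, 34.4 to 68.6), beside 57.0% of the whole DMSO list. A DMSO peak overlapped 20 of the 22 Dox peaks (90.9%, 72.2 to 97.5), beside 92.7% of the whole Dox list. Both shares had intervals that included the background. The 20 overlapping pairs comprised 18 in which the DMSO peak was longer, the Cnot3 pair in which the Dox peak was longer, and the identical Cnot9 pair. In 18 of them the Dox peak lay wholly inside the DMSO peak. Shares of such pairs over the whole lists are not given here. Pairs formed by 1 peak of each list numbered 10, with the DMSO peak longer in 8.

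The median length of subunit peaks was 125 nt under DMSO and 62.5 nt under Dox, while it was 125 nt over each whole list. Among shared peaks the medians were 150 nt (DMSO) and 62.5 nt (Dox) on the subunits. Over the whole lists they were 200 and 150 nt, so shared Dox peaks were the shorter there as well. Peaks of 25 nt, the shortest in either list, made up 10 of the 22 Dox peaks (45.5%, 26.9 to 65.3), beside 16.5% of the Dox list, which lies below the interval. They lay on Cnot1, Cnot2, Cnot3, Cnot6, Cnot7 and Cnot11. In the DMSO list they made up 3 of 29 (10.3%, 3.58 to 26.4), beside 16.6%. These peaks are not independent, as neighbours on 1 transcript share its reads.

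A DMSO peak was met by 2 or more Dox peaks in 5 of 29 cases (17.2%, 7.60 to 34.5), beside 6.86% of the DMSO list. They were 2 peaks on Cnot1 and 1 each on Cnot6, Cnot7 and Cnot11. The reverse, a Dox peak over 2 or more DMSO peaks, occurred in 0 of 22 cases (interval up to 14.9%), beside 2.25% of the Dox list. Peak lengths were multiples of 25 nt for 99.8% of the DMSO list and 99.7% of the Dox list. When neighbours in a list no more than 25 nt apart were joined, a step added after the data were seen, 27 DMSO and 18 Dox peaks remained on the subunits. The joins removed 6.90% of the subunits' DMSO peaks and 18.2% of their Dox peaks, beside 8.50% and 8.71% of the whole lists.

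**Figure D3:**
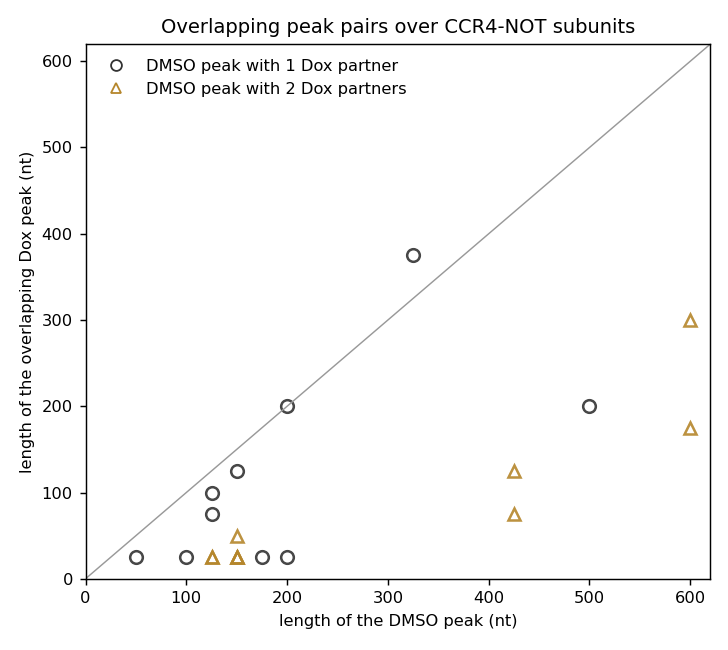
Length in nt of each Dox peak against the DMSO peak it overlaps, for the 20 overlapping pairs on the subunits, some of which fall on the same point. The line marks equal length, circles are DMSO peaks with 1 Dox partner and triangles DMSO peaks with 2, and 18 pairs lie below the line, with 1 on it (200 nt each) and 1 above it (325 and 375 nt).

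By score, the shared and unshared DMSO peaks of the subunits lay closer together than those of the whole list. The 15 shared DMSO peaks had a median score percentile of 50.7 and the 14 others a median of 43.6, whereas the medians over the whole list were 64.0 and 28.1. The median percentile of subunit peaks was 47.0 for DMSO (quartiles 32.2 and 71.3) and 53.8 for Dox (quartiles 17.6 and 81.4). Only Cnot3 and Cnot10 had a DMSO peak, and only Cnot1 a Dox peak, with a score of at least 15. A score of 15.0 lay at percentile 89.3 of the DMSO list and 91.5 of the Dox list, so most peaks of either list were below it.

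Along the mRNA, subunit peaks lay in the coding sequence in most cases. Of 27 DMSO peaks whose middle base fell on the chosen transcript, 18 were in the CDS (66.7%, 47.8 to 81.4), beside 71.9% of the list. Of the 22 Dox peaks, 12 were (54.5%, 34.7 to 73.1), beside 71.1%. The 5′UTR held 2 DMSO peaks (7.41%, 2.06 to 23.4), beside 3.42%, and 4 Dox peaks (18.2%, 7.31 to 38.5), beside 3.83%. These 4 were the pair on Cnot6 and 1 each on Cnot1 and Cnot10. The start codon was covered by 2 peaks of each list, on Cnot1 in both, on Cnot3 in the DMSO list and on Cnot10 in the Dox list.

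Within 200 nt of the stop codon lay 9 of 27 DMSO peaks (33.3%, 18.6 to 52.2), beside 22.9%, and 5 of 22 Dox peaks (22.7%, 10.1 to 43.4), beside 25.1%. Last exons held 11 of 27 DMSO peaks (40.7%, 24.5 to 59.3), beside 43.4%, and 8 of 22 Dox peaks (36.4%, 19.7 to 57.0), beside 46.7%. The genes differed in this. By their middle base, all peaks of Cnot2, Cnot8, Cnot9 and Cnot11 lay in the last exon, and none of the peaks of Cnot6 and Cnot7 did. On Cnot1, which has 49 exons, 1 peak of each list lay there.

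Peaks that crossed an exon junction were 12 of 29 in the DMSO list (41.4%, 25.5 to 59.3), beside 26.4%, and 5 of 22 in the Dox list (22.7%, 10.1 to 43.4), beside 21.8%. All 5 of the latter lay on Cnot1, Cnot3 and Cnot10, genes of 49, 18 and 20 exons. The Cnot1 transcript had a median exon length of 141 nt and the Cnot3 transcript of 128 nt.

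GGAC occurred in subunit peaks about as often as in other peaks. Searched on the strand of the peak in its exon blocks, it was found in 14 of 29 DMSO peaks (48.3%, 31.4 to 65.6), beside 54.0% of the list, and in 12 of 22 Dox peaks (54.5%, 34.7 to 73.1), beside 55.9%. The transcripts of the 9 subunits with peaks held 142 GGAC sites. Of these, 25 lay in DMSO peaks (17.6%, 12.2 to 24.7), beside 21.7% of the sites of all genes with a peak. Dox peaks held 17 (12.0%, 7.61 to 18.3), beside 15.7%, and 15 sites were in peaks of both lists. Cnot3 contributed 9 of the DMSO and 6 of the Dox sites, and Cnot1 7 and 3. A match is a description of the sequence and does not mark a methylated base.

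Some subunit peaks had a near-identical sequence elsewhere in the genome, at 98% identity or more over no less than 90% of the peak. These were 3 DMSO and 3 Dox peaks. A Cnot1 DMSO peak at codons 2233 to 2274 matched the processed pseudogene Gm6158, which lies on chromosome 14, and the short Cnot1 peaks past the stop codon matched bases beside it. The Cnot3 peaks at codon 655 matched the processed pseudogene Gm9207. The third Dox peak was that of Cnot11 noted above. Without all of these, the base ratio of DMSO to Dox was 1.95.

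Genes of associated and recruiting proteins and of other decay enzymes had a smaller DMSO excess than the subunits. The ratio of DMSO to Dox bases was 1.45 over 25 associated and recruiting proteins and 1.30 over 18 other deadenylation, decapping and exonuclease proteins, beside 2.06 over CCR4-NOT. No test of the difference was made. In the first list 15 genes carried a DMSO peak and 15 a Dox peak, beside the 27.5% and 22.1% of all protein-coding genes given above. Rc3h1, which encodes Roquin, did so in the DMSO list alone and Tob2, an antiproliferative adaptor, in the Dox list alone. In the second, 15 carried a DMSO peak and 12 a Dox peak. The decapping cofactors Edc4 and Patl1, each with 1 peak of 25 nt, and the exonuclease Xrn1 had DMSO peaks alone. Peaks in both lists were carried by 14 genes of the first list and 12 of the second. Over all protein-coding genes this held for 4730 of the 6213 with a peak in either list.

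Over both lists together the most peaks were on Tnrc6c (10 DMSO and 8 Dox), whose protein links microRNA complexes to CCR4-NOT. It was followed by Pabpc1 (9 and 7), the cytoplasmic poly(A)-binding protein, by the helicase gene Helz (11 and 4), which had the most DMSO peaks, and by Tnrc6b (7 and 7), a paralogue of Tnrc6c. The best Pabpc1 peaks reached percentiles 99.2 (DMSO) and 98.9 (Dox), above any subunit peak. Ythdf2, whose protein recruits CNOT1, had 1625 bases in 3 DMSO peaks and 1400 in 4 Dox peaks, so its bases differed less between the lists than those of Cnot1 (1500 and 700).

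**Figure D4:**
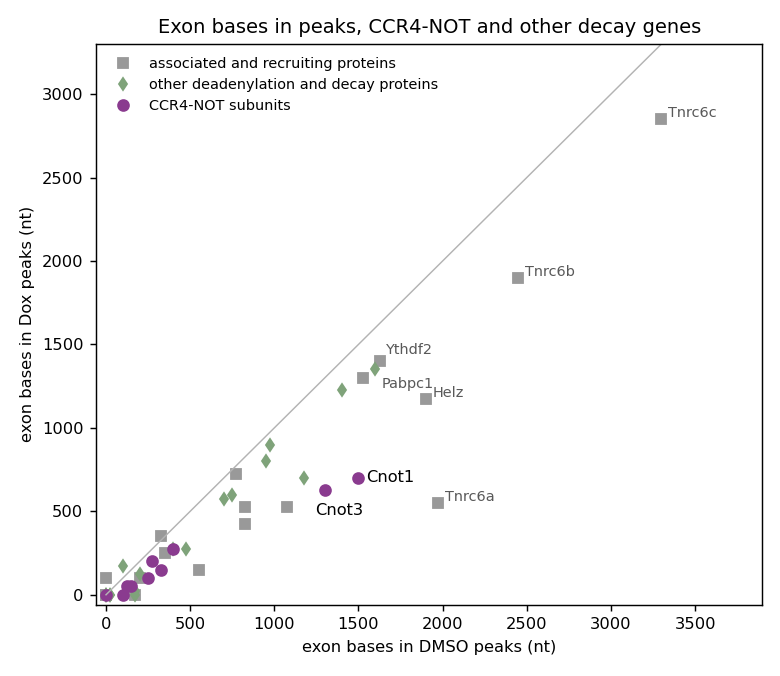
Exon bases in Dox peaks against exon bases in DMSO peaks, in nt, for each gene, with CCR4-NOT subunits as circles, associated and recruiting proteins as squares and other decay proteins as diamonds. The line marks equal values, and Cnot1 (1500 and 700) and Cnot3 (1300 and 625) lie well below it while Ythdf2 (1625 and 1400) and Pabpc1 (1600 and 1350) lie near it.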

How the data were processed

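The authors extracted poly(A) RNA, fragmented it, and sequenced anti-m6A IP and input RNA as stranded, paired-end libraries, 2 replicates in each of 4 groups. Per the labels and the study's methods, they filtered reads with fastp 0.19.4, aligned them to mm10 with HISAT2 2.2.1 and called peaks with exomePeak2, whose version, settings and handling of replicates are not given in the sources used here. The processing notes also name ChIPseeker. The deposited peak lists, 1 per treatment, hold exon blocks and 1 value per peak, read here as the authors' −log10 p-value because every value was at least 10.0. It was used within a list only, except where 1 threshold was set on both. The totals of the lists differ from those the study states, and the step between them is not given in the sources used here. The lists give no read counts, so depth and its effect on precision are unknown. A deeper library or a more abundant transcript gives more and longer peaks.

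Peaks were compared with GENCODE release M21 in Python 3.11.15 (numpy 2.4.6, pysam 0.24.0, biopython 1.88, matplotlib 3.10.9), and blastn 2.17.0 was used to look for near-identical loci. Peaks of the lists were shared when 1 or more bases overlapped on the same strand. Positions used 1 transcript per gene, that with the longest coding sequence, and the middle base of the peak. DRACH stands for any base but C, a purine, A, C, and any base but G. Reference sequence was not used here for 7 DMSO and 4 Dox peaks, none on a subunit. Simulated peaks were used to test gene assignment, distance to the stop codon, placement relative to the start of the coding sequence, and overlap. The other steps were not tested in this way. Every subunit peak was described. Of the lists of recruiting and decay genes, the 5 with most peaks, those with peaks in 1 list and Ythdf2 were named, except 1 that is not reported here. The members, lists and rules were chosen with earlier results of these data known. Alternatives covered score thresholds, equal list sizes, strand, transcript, near-identical loci, overlap, the stop codon window, the motif and joined neighbours.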

Additional observations from a re-analysis of the deposited data

How the results depend on the processing

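No paired analysis was possible because replicates were merged before peaks were listed, and no replicate could be left out for that reason. A score of at least 15 left 2 DMSO peaks on 2 subunits (450 bases) and 1 Dox peak on 1 subunit (125 bases), with 0% of either overlapping the other list, 0% of either within the stop codon window, and GGAC in 100% of the Dox peaks. A score at or above the DMSO median of 11.6 left 14 DMSO peaks on 6 subunits over 2875 bases, and 11 Dox peaks on 5 subunits over 1426 bases. In that setting 4 subunits had more DMSO than Dox bases, beside 9 without a threshold. The share of all genes under either threshold is not given here. The shared part of DMSO peaks was 24.1% when at least 50% of the peak had to overlap and 20.7% when this held for both peaks, and under the latter 27.3% of Dox peaks were shared. DRACH occurred in 86.2% of DMSO and 77.3% of Dox peaks, GTCC, the reverse complement of GGAC, in 44.8% of DMSO and 31.8% of Dox peaks, and with 25 bases added at each end GGAC occurred in 69.0% of DMSO peaks. Of the values over all subunits under an alternative, 39 stayed within 1.5 times the count or within the interval of the share, and 23 did not. The GTCC share of DMSO peaks is among the 39. Of the values for single subunits, 82 stayed and 38 did not. In the settings with equal list sizes, either strand, 1 transcript per gene or no near-identical loci, the base ratio of DMSO to Dox ranged from 1.79 to 2.05, and it was 3.60 at a score of at least 15. The cause of these shifts was not tested. With 1 list per treatment and unknown depth, the counts describe these lists only.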
